A study of Mus musculus with 8 samples.

Results

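The Krüppel-like factors are zinc finger transcription factors, and 10 of their genes were followed across 8 Affymetrix genome-wide mouse expression arrays of total RNA. These genes were Klf2, Klf3, Klf4, Klf5, Klf6, Klf7, Klf9, Klf10, Klf12 and Klf13. Every probe set whose platform annotation names 1 of them and no other gene was taken, which gave 38 of 45037 probe sets without the array's own controls. Of the 38, 27 had a mean signal above the 40th percentile of all probe sets (log2 signal 8.45) and were tested, and 11 lay under that limit and are described by their values. By their labels 4 arrays are Ctrl and 4 are Exp, each numbered 1 to 4, and the labels give no genotype, strain, treatment or age for either. One label names the tissue as trigeminal ganglion, which holds the sensory neurons of the head, and another names brain and adrenal medulla. Nothing states that the arrays came from separate animals, so p-values measure the spread between these arrays only, which may be technical.

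Proteins of this family bind DNA through 3 zinc fingers at their carboxyl end and recognise GC-rich elements and CACCC boxes, and they differ in the rest of the protein, which recruits activators or repressors. Klf3 and Klf12 bind the corepressor CtBP, and Klf9, Klf10 and Klf13 recruit the Sin3 corepressor, whereas Klf2, Klf4, Klf5, Klf6 and Klf7 carry activating regions. In neurons, Klf6 and Klf7 are known to favour axon growth and Klf4 and Klf9 to restrain it, and Klf7 is needed for the survival of pain-sensing neurons of the sensory ganglia. Klf2 and Klf4 are also factors of the vascular endothelium and Klf5 of epithelia.

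The arrays carried the transcripts of sensory neurons at high signal. All 11 sensory neuron markers on the array were tested, with a median percentile of 99.0 among all probe sets, and their median Exp minus Ctrl was -0.00 log2 units. Of 9 brain markers 7 were under the filter, Olig2 at the 1.60th percentile the lowest, while Aqp4 and Neurod6 were well above it at log2 signals of 12.5 and 11.6. Of 9 chromaffin and sympathetic markers 6 were tested, with Chgb at the 95.8th, Chga at the 88.1th and Th, the first enzyme of catecholamine synthesis, at the 85.7th percentile. Dbh, which makes noradrenaline, lay just under the limit at the 39.9th. The deposited signals had the same trimmed mean of 2500 in every array and medians from 478 to 553, and the number of arrays limits the precision of every comparison.

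The members' own upstream DNA was read for matches to the elements that these proteins bind. The 250 bases before the start site are shown for Klf7, the member with the highest signal, and for Klf2, the member with the lowest, because the pair marks both ends of the family's range. The sequences are RefSeq's, build GRCm38.p6, 5′ to 3′ on the gene's strand, from chr1:64121390-64121639 (minus strand) for Klf7 and chr8:72318812-72319061 (plus strand) for Klf2. Capitals mark each CACCC and each GGGCGG, read on both strands, with overlapping matches counted separately.
Klf7: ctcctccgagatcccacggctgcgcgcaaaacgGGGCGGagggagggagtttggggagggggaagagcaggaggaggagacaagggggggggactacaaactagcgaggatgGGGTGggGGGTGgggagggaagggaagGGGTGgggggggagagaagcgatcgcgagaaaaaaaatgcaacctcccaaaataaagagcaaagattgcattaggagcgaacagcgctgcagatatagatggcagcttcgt
Klf2: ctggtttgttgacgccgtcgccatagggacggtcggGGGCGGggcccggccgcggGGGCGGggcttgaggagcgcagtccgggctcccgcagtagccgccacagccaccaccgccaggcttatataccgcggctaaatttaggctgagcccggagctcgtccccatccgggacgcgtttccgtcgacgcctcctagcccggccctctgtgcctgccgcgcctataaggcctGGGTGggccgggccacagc
The Klf7 window held 3 CACCC and 1 GGGCGG match, and the Klf2 window held 1 and 2. GC content was 59.2% in Klf7 and 71.2% in Klf2. The table held 8 of the 10 genes, without Klf5 and Klf10. A CACCC match was present in 6 of the 8 windows, in all but Klf4 and Klf6, where 52.0% of all 32851 windows of this length held one. A GGGCGG match was present in 6 of the 8, in all but Klf9 and Klf12, against 32.7% of all windows. The highest count was in Klf3, with 5 CACCC and 6 GGGCGG matches. The share over all windows was not matched for GC content. These counts describe letters in 1 window and show no binding.

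Klf7 had the highest signal of the family in 8 of 8 arrays. Its brightest probe set lay at the 98.5th percentile of all probe sets, with a mean log2 signal of 15.4 ± 0.19 (SD over 8 arrays). On the deposited linear scale its signal ran from 35554 to 53725, with a median of 42504. Signals of different probe sets depend on their probes as well as on the transcript, so the order that follows is one of signal and not of transcript number.

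The next 3 genes were close to each other. Klf3 had a mean log2 signal of 13.6 ± 0.10, Klf13 of 13.3 ± 0.23 and Klf6 of 13.1 ± 0.22. Klf7 exceeded Klf3 by 1.79 ± 0.21 log2 units within an array, in 8 of 8 arrays. Klf3 exceeded Klf13 by 0.28 ± 0.29, in 5 of 8 arrays, and Klf13 exceeded Klf6 by 0.25 ± 0.31, in 5 of 8, so neither pair was separated beyond its spread.

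Klf12 (12.5 ± 0.12), Klf9 (12.4 ± 0.28) and Klf10 (12.1 ± 0.16) formed the middle of the range. Klf6 exceeded Klf12 by 0.58 ± 0.16 log2 units, in 8 of 8 arrays. Klf12 exceeded Klf9 by 0.12 ± 0.32 and Klf9 exceeded Klf10 by 0.32 ± 0.33, in 5 and 6 of 8 arrays, and these neighbours were not separated.

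The 3 members known from vessels and epithelia came last. Klf4 followed Klf10 at 10.3 ± 0.21, lower by 1.73 ± 0.20 log2 units and in 8 of 8 arrays. Klf5 lay at 9.25 ± 0.31, and Klf4 exceeded it by 1.09 ± 0.29, in 8 of 8 arrays. Klf2, at 8.56 ± 0.28, lay at the 42.1th percentile, just above the limit for testing, and Klf5 exceeded it by 0.69 ± 0.49, in 7 of 8 arrays.

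**Figure D1:**
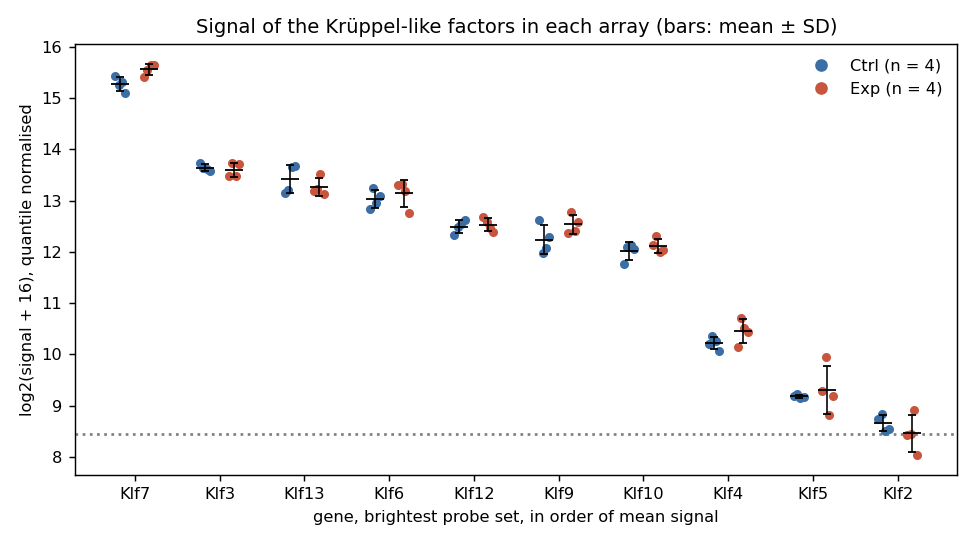
Log2(signal + 16) of the brightest probe set of each gene in the 4 Ctrl and 4 Exp arrays, in order of mean signal. Each point is an array, bars give mean ± SD per group, and the dotted line is the limit for testing (8.45). Klf7 lies above every other member in 8 of 8 arrays.

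The order depended on which probe set stood for a gene. Within a gene, signals could differ by more than between neighbouring genes. The tested probe sets spanned 4.72 log2 units in Klf3, 3.63 in Klf6, 3.41 in Klf13, 2.75 in Klf7 and 0.89 in Klf12. Ordered by the mean of a gene's tested probe sets, a choice made after the data were seen, Klf7 stayed first (14.0) and Klf4, Klf5 and Klf2 stayed the last 3, whereas Klf3 moved to place 7 (10.4) and Klf12 to place 2 (12.2).

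**Figure D2:**
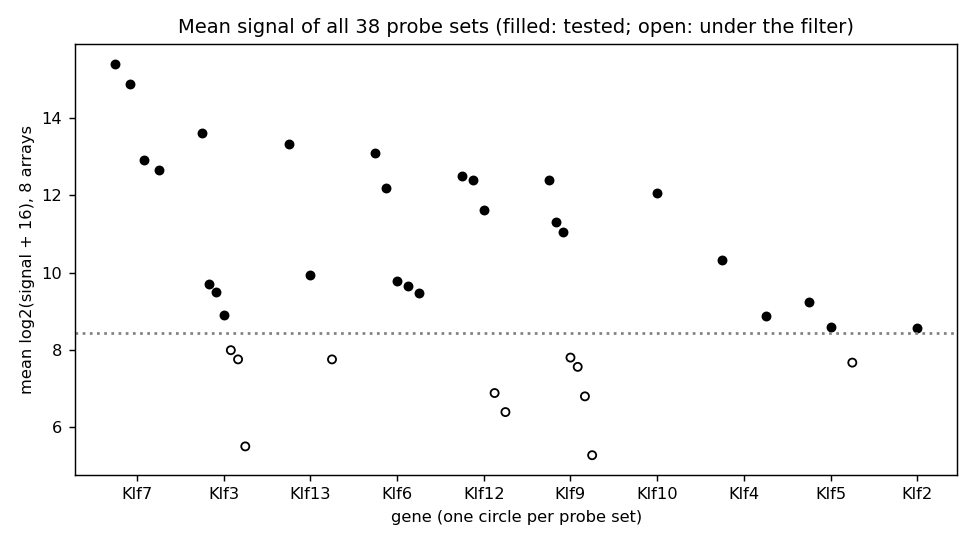
Mean log2(signal + 16) over 8 arrays of all 38 probe sets, grouped by gene. Filled circles are the 27 tested probe sets, open circles the 11 under the filter, and the dotted line is the limit of 8.45. Klf3 and Klf9 have 7 probe sets each, and their means run from 5.50 to 13.6 and from 5.27 to 12.4.

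No Krüppel-like factor passed the test between Exp and Ctrl. Of the 27 tested probe sets, 0 were called by limma at a 5% false discovery rate over all 27022 tested probe sets, of which 1, or 0.00370%, was called. At an unadjusted p below 0.05 there was 1 member, a Klf7 probe set, against 4.69% of all tested probe sets. The smallest adjusted p of a member was 0.999. Of the 27 members, 16 were higher in Exp and 11 lower, with a median difference of 0.10 log2 units, and the corresponding values over all tested probe sets were 48.4% higher and a median of -0.01. Among the higher ones, Klf5 1451021_a_at was tested only because the Exp arrays raised its mean, its Ctrl mean of 8.38 being under the limit. Centring the arrays on their medians gave 15 higher and 12 lower, with a median of 0.03. The 95% confidence interval lay within a doubling in either direction for all 27 tested members, and their median standard error was 0.154.

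**Figure D3:**
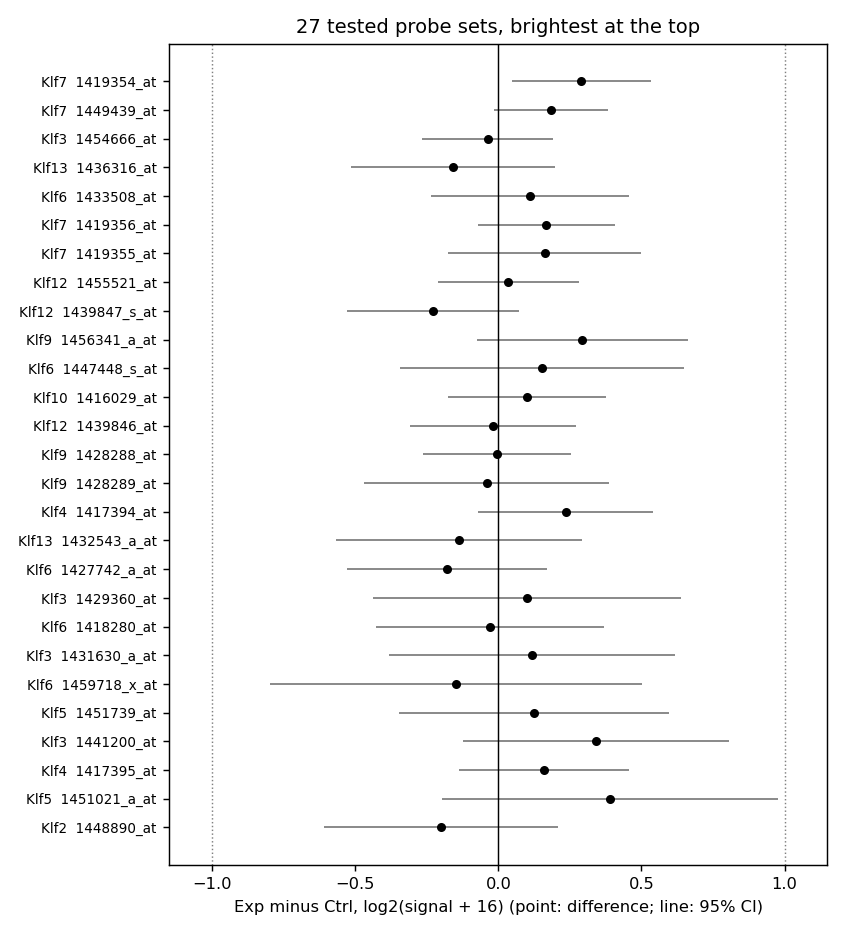
Exp minus Ctrl in log2(signal + 16) for the 27 tested probe sets, brightest at the top, with the 95% confidence interval from limma. Dotted lines mark a doubling in either direction. The intervals of 26 probe sets include 0, and that of the brightest Klf7 probe set lies above it, without passing after adjustment.

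Klf7 was higher in Exp in each of its 4 probe sets, by 0.16 to 0.29 log2 units, and none passed. The brightest probe set (1419354_at) read 15.42, 15.26, 15.31 and 15.10 in Ctrl 1 to 4. In Exp 1 to 4 it read 15.41, 15.54, 15.65 and 15.64. Exp 2, 3 and 4 lay above all Ctrl arrays, and Exp 1 lay just below Ctrl 1, so that the groups overlapped by those arrays. The difference was 0.29 (SE 0.11, 95% confidence interval 0.05 to 0.53, a 1.22-fold difference; limma, unadjusted p = 0.0248, adjusted p = 0.999). An exact two-sided permutation test over the 70 orders of the arrays gave p = 0.0571, where the smallest p this design allows is 0.0286.

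The second Klf7 probe set (1449439_at) separated the groups. It read 14.88, 14.73, 14.85 and 14.70 in Ctrl 1 to 4 and 14.94, 14.97, 14.98 and 15.00 in Exp 1 to 4, so that every Exp array lay above every Ctrl array. The difference was 0.18 (SE 0.09, limma adjusted p = 0.999), with means of 14.8 ± 0.09 and 15.0 ± 0.03 (SD, n = 4 each). It was the only 1 of the 27 tested members whose groups did not overlap with Exp higher, where 1.06% of all tested probe sets did so, and 0 members had Exp wholly lower, where 1.28% of all did. The other two, 1419356_at and 1419355_at, differed by 0.17 (SE 0.11) and 0.16 (SE 0.15), and their groups overlapped. Without Exp 3 these were 0.11 and 0.05. All 4 probe sets were annotated with the same sequence accession, so they are not independent readings of the gene.

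**Figure D4:**
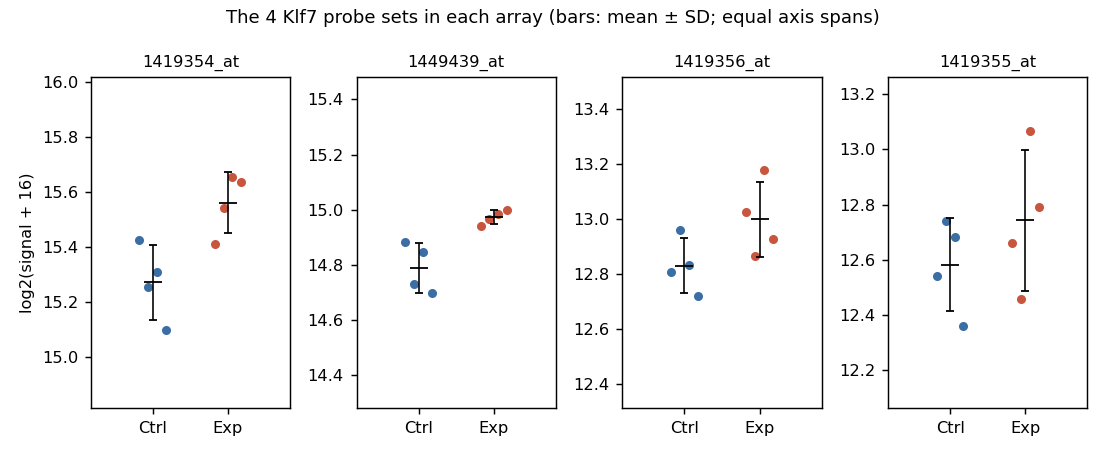
Log2(signal + 16) of the 4 Klf7 probe sets in the 4 Ctrl and 4 Exp arrays, with mean ± SD per group. The groups separate in 1449439_at and overlap in the other 3, in 1419354_at by Exp 1 and Ctrl 1 only.

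Sensory neuron markers gave no difference of this size. Their median was -0.00 and their range -0.08 (Snap25) to 0.08 (Pou4f1, a homeodomain factor of sensory neurons) log2 units. Without quantile normalization 8 of the 11 were higher in Exp, with a median of 0.05. Some other measures moved with the groups. For the actin control, signal at the 3′ end over that at the 5′ end, which reflects RNA integrity and labelling, was 4.36 ± 0.07 log2 units in Ctrl and 4.54 ± 0.12 in Exp (SD, n = 4 each). In every array the 3′ end thus read far higher than the 5′ end. The ratio read 4.45, 4.33, 4.33 and 4.30 in Ctrl 1 to 4 and 4.38, 4.66, 4.52 and 4.61 in Exp 1 to 4. As in the brightest Klf7 probe set, Exp 2 to 4 were the highest, Ctrl 4 was the lowest and Ctrl 1 lay above Exp 1. The other Klf7 probe sets were also lowest in Ctrl 4 but did not share the whole order. In 1449439_at Ctrl 1 (14.88) lay below Exp 1 (14.94). In 1419356_at Ctrl 2 (12.96) lay above Exp 2 (12.87), and in 1419355_at Exp 2 (12.46) lay below Ctrl 1 (12.54). Of 10 tested Schwann and satellite glia markers 9 were lower in Exp, with a median of -0.25, and 0 were called. Their part in the Klf7 values was not tested, and in whole tissue fewer cells of a type and less RNA per cell cannot be told apart.

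Genes that earlier work links to Klf7 in neurons did not pass the test. Of 6 on the array, Omp, a protein of olfactory neurons, was under the filter at the 26.1th percentile. Of the 5 tested genes 3 were higher and 2 lower in Exp, with a median of 0.02 and 0 called, and centring on medians gave 1 higher and 4 lower. L1cam, an adhesion molecule of growing axons, differed by 0.07 (SE 0.10) and Gap43, a protein of the growth cone, by 0.02 (SE 0.13). The cell cycle inhibitors Cdkn1a and Cdkn1b differed by -0.11 (SE 0.12) and -0.04 (SE 0.11), and Ntrk2, the receptor for BDNF, by 0.04 (SE 0.17).

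Among 12753 other genes, each taken by its brightest probe set, the cation channel gene Trpc4 followed the array-to-array pattern of Klf7 most closely, with a Pearson r of 0.97 over the 8 arrays. It was followed by Wdr91 (0.94), Defb1 (0.93), Larp4b (0.93) and Pard6g (0.92), and 11 genes had an r over 0.9. Trpc4 read 10.70, 10.48, 10.46 and 10.39 in Ctrl 1 to 4 and 10.69, 10.91, 11.10 and 11.04 in Exp 1 to 4. As in the brightest Klf7 probe set, Exp 2 to 4 were the 3 highest arrays, Ctrl 4 was the lowest, and Ctrl 1 stood just above Exp 1. The Exp minus Ctrl difference of Trpc4 was 0.43 (SE 0.12, limma adjusted p = 0.999). These genes were picked from many for their likeness, and so their values are a description.

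Klf6, the closest relative of Klf7 in the family, did not share its uniform sign. Its brightest probe set (1433508_at) read 12.85, 13.25, 12.96 and 13.09 in Ctrl 1 to 4. In Exp 1 to 4 it read 13.31, 13.33, 13.19 and 12.76. Exp 1 and 2 were the highest arrays and Exp 4 the lowest, and the difference was 0.11 (SE 0.15). Of its 5 tested probe sets 2 were higher and 3 lower, from -0.18 (1427742_a_at, SE 0.15) to 0.15 (1447448_s_at, SE 0.22). The last of these and 1459718_x_at (-0.15, SE 0.29) share an accession, yet had opposite signs. By the array maker's naming, sets ending in _s_at or _x_at can hold probes that match other transcripts.

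Klf4, which restrains axon growth and is also an endothelial and epithelial factor, was higher in Exp in both of its probe sets. The brighter (1417394_at) read 10.21, 10.35, 10.26 and 10.06 in Ctrl 1 to 4 and 10.15, 10.72, 10.52 and 10.44 in Exp 1 to 4. Exp 2, 3 and 4 lay above the Ctrl arrays, whereas Exp 1 lay among them. The difference was 0.24 (SE 0.13), or 0.15 without Exp 2, and that of the dimmer one (1417395_at) was 0.16 (SE 0.13). Neither passed (limma, adjusted p = 0.999 for both).

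Klf5, an activator of epithelial growth, had 2 tested probe sets, both with their highest value in Exp 2. Its brighter probe set (1451739_at) read 9.18, 9.23, 9.16 and 9.17 in Ctrl 1 to 4. In Exp 1 to 4 it read 9.28, 9.94, 8.82 and 9.20, with Exp 2 the highest and Exp 3 the lowest of all arrays. The difference was 0.13 (SE 0.21), and without Exp 2 it was -0.08 (SE 0.13). The dimmer one (1451021_a_at) differed by 0.39 (SE 0.26), the largest difference among the tested members, and by 0.17 (SE 0.22) without Exp 2. Its Ctrl mean of 8.38 was under the limit for testing, so it was tested only because the Exp arrays raised its mean.

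Epithelial markers were, in their mean, also uneven across the Exp arrays. Of 12 markers on the array 8 were tested and 0 called, and 4 were under the filter, with Krt15 at the 8.37th percentile. Trp63 was tested only through its Exp mean of 8.81, its Ctrl mean being 8.20. Over all 12, without regard to the filter, 10 were higher in Exp and 2 lower, with a median of 0.37. Relative to the mean of all 8 arrays, the 8 tested genes averaged -0.07, 0.54, 0.72 and -0.52 log2 units in Exp 1 to 4, and -0.22 to -0.07 in Ctrl. Not every marker followed this mean. Grhl2, with the smallest p of the list, read 9.76, 9.70, 9.78 and 9.43 in Exp 1 to 4 and 9.01 to 9.37 in Ctrl. It differed by 0.50 (SE 0.12, limma adjusted p = 0.937). Krt5 differed by 0.72 (SE 0.31) and read 8.93, 10.02, 9.95 and 8.60 in Exp 1 to 4. Of 12 muscle markers on the array 10 were higher in Exp and 2 lower, with a median of 0.48. Of these 10 were tested and 0 called, 4 of them with a Ctrl mean under the limit, and the tested genes had their highest mean in Exp 3 (1.68). The brighter tested probe sets of Klf4 and Klf5 were both highest in Exp 2, at 0.38 and 0.69 above their means. In Exp 3, where the epithelial marker mean was highest, this Klf5 probe set was 0.43 below its mean (-0.43) and that of Klf4 stood at 0.19. The dimmer Klf5 probe set (1451021_a_at) read 8.92 in Exp 3, above its mean of 8.58 and its highest Ctrl array (8.81). The Klf5 probe sets thus disagreed in Exp 3. The part of epithelial cells or muscle in the Klf4 and Klf5 values was not tested.

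Klf2, the flow-responsive factor of endothelium, has 1 probe set (1448890_at), and it was dim. It read 8.75, 8.83, 8.51 and 8.55 in Ctrl 1 to 4 and 8.43, 8.45, 8.92 and 8.04 in Exp 1 to 4. Both the highest and the lowest array were in Exp, and the difference of -0.20 (SE 0.18) did not pass. Of 10 tested endothelial markers 8 were lower and 2 higher in Exp, with a median of -0.09 and 0 called. Without quantile normalization they were 5 and 5. Cdh5, the cadherin of endothelial junctions, went the other way. It was higher by 0.63 (SE 0.10; limma adjusted p = 0.445), with Ctrl at 9.18 to 9.46 and Exp at 9.86 to 10.12, so that the groups did not overlap. Kdr and Tek, receptors of endothelium, were at the 76.4th and 70.7th percentiles and differed by -0.22 (SE 0.19) and -0.24 (SE 0.26), and Pecam1 and Tie1 were under the filter at the 10.3th and 2.55th. The list mean was highest in Exp 4 (0.31) and lowest in Exp 3 (-0.25), the reverse of Klf2 in these arrays (-0.52 and 0.36).

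**Figure D5:**
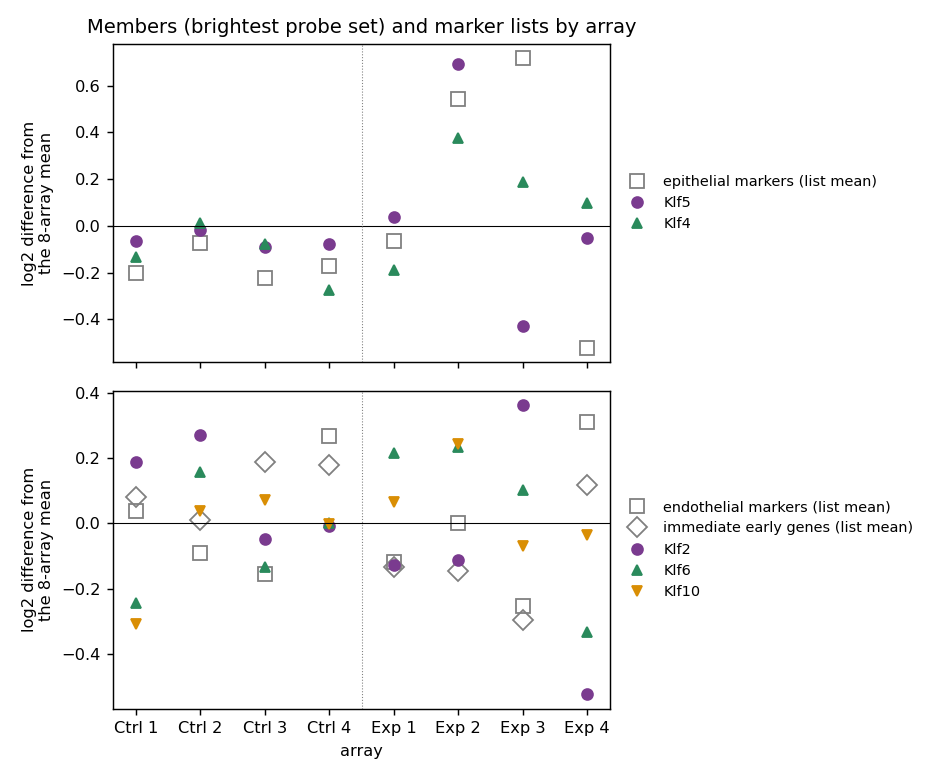
Log2 difference from the 8-array mean in each array, with members read by their brightest probe set. The top shows Klf5, Klf4 and the mean of 8 epithelial markers. The bottom shows Klf2, Klf6, Klf10, the mean of 10 endothelial markers and the mean of 14 immediate early genes. Exp 2 is the highest array for Klf5 and Klf4, and Klf2 and the endothelial markers are at opposite ends in Exp 3 and Exp 4.

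The repressors that act through CtBP showed no common shift. Klf3 (1454666_at) read 13.73, 13.63, 13.62 and 13.58 in Ctrl 1 to 4 and 13.49, 13.73, 13.49 and 13.71 in Exp 1 to 4. Exp 1 and 3 lay below the Ctrl range and Exp 2 and 4 within it, and the difference was -0.04 (SE 0.10). Its 3 other tested probe sets were higher in Exp, up to 0.34 (SE 0.21) in 1441200_at, where Exp 2 read 9.68 and the other Exp arrays 8.78 to 8.96. Without Exp 2 that difference was 0.14 (SE 0.14).

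Klf12 (1455521_at) read 12.33, 12.48, 12.55 and 12.62 in Ctrl 1 to 4 and 12.68, 12.57, 12.47 and 12.39 in Exp 1 to 4. The groups covered nearly the same range, and the difference of 0.03 (SE 0.11) became -0.04 when arrays were centred on their medians. A second Klf12 probe set (1439847_s_at) differed by -0.23 (SE 0.13), the lowest value of any tested member, and the third (1439846_at) by -0.02 (SE 0.13).

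The repressors that recruit Sin3 differed in sign among themselves, and none passed. Klf9, a target of thyroid hormone and glucocorticoid, read 12.63, 11.97, 12.07 and 12.30 in Ctrl 1 to 4 in its brightest probe set (1456341_a_at). In Exp 1 to 4 it read 12.38, 12.77, 12.40 and 12.59. Exp 2 was the highest array and Ctrl 1 the next, and the difference was 0.29 (SE 0.16, limma unadjusted p = 0.105). The other tested Klf9 probe sets, 1428288_at and 1428289_at, differed by -0.01 (SE 0.11) and -0.04 (SE 0.19). The mean of the 3 was 0.08.

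Klf10, the TGF-beta-inducible member, read 11.76, 12.10, 12.14 and 12.06 in Ctrl 1 to 4 and 12.13, 12.31, 12.00 and 12.03 in Exp 1 to 4. Ctrl 1 was the lowest array, the others overlapped, and the difference was 0.10 (SE 0.12), or 0.01 without Ctrl 1. Klf13 (1436316_at) read 13.15, 13.21, 13.65 and 13.67 in Ctrl 1 to 4 and 13.18, 13.23, 13.52 and 13.13 in Exp 1 to 4. Within each group its arrays split into higher ones (Ctrl 3, Ctrl 4 and Exp 3) and lower ones, and the difference was -0.16 (SE 0.16). Its dimmer tested probe set (1432543_a_at) differed by -0.14 (SE 0.19), or -0.00 without Ctrl 1.

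The 11 probe sets under the filter had mean log2 signals from 5.27 to 7.99 and belonged to Klf3, Klf5, Klf9, Klf12 and Klf13. In the fit without a filter 4 of them had an unadjusted p below 0.05, with adjusted p = 0.997 in limma for each. With the brightest Klf7 probe set, 5 of the 38 members did so, where 4.93% of all 45037 probe sets did. Of these 4, 3 read Klf9, and their signs disagreed. 1436952_at differed by 0.72 (SE 0.26), 1436763_a_at by 1.42 (SE 0.51) and 1452723_at by -0.53 (SE 0.19). The fourth, 1422227_at of Klf12, differed by 1.04 (SE 0.40), with a Ctrl mean of 5.87 ± 0.45 and an Exp mean of 6.91 ± 0.76 (SD over 4 arrays). The files carry no detection calls, so it is not known whether signals this low read the named transcript.

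The rest of the Krüppel-like and Sp families showed the same lack of calls. Of 6 other Klf genes on the array, 5 were tested, with 3 higher, 2 lower (2 and 3 when arrays were centred on their medians) and a median of 0.00. Klf11 was the brightest of them at 11.9 and differed by 0.00 (SE 0.14), and Klf16 differed by 0.16 (SE 0.18) and Klf17 by 0.18 (SE 0.15). Klf1, the factor of red cell development, was under the filter. Of 7 Sp genes on the array 5 were tested, 3 of them higher and 2 lower, with a median of 0.12. Sp1, the general activator of GC boxes, differed by -0.09 (SE 0.09), Sp3 by 0.15 (SE 0.10) and Sp6 by 0.51 (SE 0.35).

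Cofactors and upstream pathways were likewise not called. Of 14 tested cofactors and ubiquitin ligases, 5 were higher and 9 lower (2 and 12 when centred on medians), with a median of -0.02, where 5774 of 12763 tested genes were higher and the median was -0.01. Ctbp2, a CtBP corepressor, differed by -0.27 (SE 0.12, limma unadjusted p = 0.0499), and Ctbp1, at a log2 signal of 15.3, by -0.01 (SE 0.09). Sin3b and Sin3a, the scaffolds of the Sin3 complex, differed by -0.10 (SE 0.09) and -0.08 (SE 0.09), and Fbxw7, a ubiquitin ligase subunit, by 0.18 (SE 0.10). Of 15 tested upstream genes 6 were higher and 9 lower (3 and 12 when centred on medians), with a median of -0.02. Thrb, a thyroid hormone receptor, differed by 0.45 (SE 0.15, limma unadjusted p = 0.0143, adjusted p = 0.999), and Nr3c1, the glucocorticoid receptor, by -0.19 (SE 0.12).

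Immediate early genes, a class that responds to stimulation and tissue handling and to which Klf2, Klf4, Klf6 and Klf10 can belong, had 5 of 14 tested genes higher and 9 lower. Their median was -0.03, and 0 were called. Over all 16 on the array, without regard to the filter, 7 were higher and 9 lower, with a median of -0.01. The genes under the filter were Fosb, with means of 7.47 in Ctrl and 8.62 in Exp, and Junb, with 7.29 and 7.37. Egr1 differed by -0.16 (SE 0.15), Fos by -0.00 (SE 0.28) and Atf3 by -0.35 (SE 0.16). Egr2, which is also a Schwann cell factor, differed by -2.66 (SE 0.97) and did not pass (limma, adjusted p = 0.999). The list mean stood between 0.01 and 0.19 in Ctrl and at -0.13, -0.15, -0.30 and 0.12 in Exp 1 to 4, and Egr2 carried much of this. Without it, a choice made after the data were seen, the 13 other genes averaged -0.13 to 0.11 in Ctrl and -0.03, -0.06, -0.08 and 0.08 in Exp. In Exp 1 and Exp 2, Klf6 stood 0.22 and 0.23 above its mean and Klf10 0.06 and 0.24 above. Klf2 stood at -0.13 and -0.11 and Klf4 at -0.19 and 0.38. In Ctrl 1, where these 13 genes were lowest, Klf6, Klf10, Klf4 and Klf2 stood at -0.24, -0.31, -0.13 and 0.19. In Ctrl 2, where they were highest, the values were 0.16, 0.04, 0.01 and 0.27. In Exp 4, Klf6 stood at -0.33.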

How the data were processed

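Total RNA of mouse was measured on 8 arrays, 4 Ctrl and 4 Exp, as the titles give them. Each deposited value is the intensity of a probe set, linear and not logged. The software and settings by which the authors derived it are not stated in the labels or file headers. Each array had a mean of 2500 without the lowest and highest 2% of its 45101 probe sets, a property that global scaling gives, so differences are relative to the bulk of probe sets.

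Signals were taken as log2(signal + 16), which understates changes of dim probe sets. After leaving out 64 control probe sets, array medians differed by up to 0.203 log2 units, over the limit of 0.2 set for quantile normalization, which was applied. Probe sets under the 40th percentile of means (a signal of 333) were left out, and 27022 were fitted with limma 3.58.1 in R 4.3.3 (lmFit, eBayes, two-sided, Benjamini-Hochberg over all, 5% false discovery rate). The fit was tested on simulated data.

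Genes were named by the platform annotation, updated by Entrez identifier through RefSeq (GRCm38.p6). No gene was named from the 932 probe sets with several names. List genes are read by their brightest probe set. The named genes were all members, up to 4 genes per list with the smallest p, genes that define a tissue, and the 5 genes most like Klf7. Genes named beyond these were chosen after their values were seen. Members and lists were chosen with earlier results of these data known, so they give no independent support. All columns were mapped to samples. The pseudocount, filter, normalization, block, weights and single arrays were varied (closing section). Figures were drawn with matplotlib 3.10.9.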

Additional observations from a re-analysis of the deposited data

Results flagged for a closer look

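Within each group of 4 arrays, a value was noted when its gap to the nearest of the others exceeded 0.829 of the group's range. This held in 7 of 104 groups from probe sets and lists, where chance gives about 5.2. In Ctrl 3, log2 signals lay apart for Klf12 (1439847_s_at) at 12.361 (the others 12.55 to 12.57) and for Klf3 (1431630_a_at) at 9.1442 (the others 9.52 to 9.58). Klf6 (1427742_a_at) lay apart in Exp 2 at 10.035 (the others 9.57 to 9.58). Among probe sets under the filter, Klf3 (1458487_at) lay apart in Exp 3 at 6.92 (the others 8.09 to 8.26) and Klf13 (1456030_at) in Exp 1 at 6.11 (the others 8.08 to 8.37). Of the lists, the mean of the 5 tested Sp genes lay apart in Exp 3, at 0.262 log2 units above the mean of all arrays (the others -0.01 to 0.01). That of the 2 tested brain markers lay apart in Exp 1 at 0.235 (the others -0.15 to -0.09).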

How the results depend on the processing

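Under all 17 alternatives 0 member probe sets were called. The brightest Klf7 probe set stayed higher in Exp in all 17, from 0.23 (without Ctrl 4) to 0.34 (without Exp 1), with an unadjusted p below 0.05 in 12 of them and a smallest adjusted p of 0.635. Of the 27 tested members, 17 kept their sign under every alternative that tested them, all 4 of Klf7 among them. The other 10, none of them called, changed sign in 27 of all 450 values, 23 of these with an array left out, to values from -0.09 to 0.11. Taking the mean of a gene's tested probe sets in place of the brightest changed Klf3 from -0.04 to 0.13 and Klf9 from 0.29 to 0.08, and moved Klf6 to -0.02 and Klf12 to -0.07. The single call among all probe sets, outside this family, became 0 without a filter, with a filter at the 60th percentile and with the replicate block, and ran from 0 to 1 with an array left out. With the replicate block the Klf7 difference was 0.29 (SE 0.13). Same-numbered arrays did not deviate together (correlations of -0.12 to 0.05), so the numbers were not taken as pairs. Leaving out 1 array moved the difference of 23 of the 27 tested members by over 1.5 times or turned its sign. The other 4 were Klf7 (1419354_at and 1449439_at), Klf12 (1439847_s_at) and Klf9 (1456341_a_at). With 4 arrays a group, the median standard error of a tested member was 0.154.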
